A study of Mus musculus with 3 samples.

Results

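The genes described here are 33 genes of DNA replication and S phase, chosen by name: subunits of the replicative helicase and its loaders, polymerase and clamp factors, enzymes of nucleotide supply, fork protection and checkpoint factors, and histone and chromatin factors. All 33 were found by symbol among the 20586 genes of the deposited count table. No rule on their values was used to choose them, but earlier results of these data were known when they were chosen. Of the 33, 29 had a mean of at least 5 CPM over the 3 libraries, where CPM is a gene's count scaled to a common library total. Cdc6, Cdc45, Ung and Chaf1b were below that mean, and they are counted with the others throughout.

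The libraries are droplet single-cell RNA sequencing of CD45+ cells, a surface marker of leukocytes, from the thalamus of mice killed 4 hours after an intracerebroventricular injection. For cKO IL-33, the mice carried 1 Cx3cr1-creER allele and floxed ST2 on both chromosomes, and were given the cytokine IL-33. For WT IL-33 they were Cx3cr1-creER heterozygotes given IL-33, and for WT vehicle Cx3cr1-creER heterozygotes given vehicle. All 3 groups thus carry 1 copy of the recombinase, which is driven by the Cx3cr1 gene of microglia and related macrophages and works only after tamoxifen, and ST2 is the receptor chain for IL-33. A vehicle library with the floxed alleles was not analysed here. The sources used here do not give the age of the mice or the number pooled into each library. Each group is 1 library, so no difference has a replicate check, no test was made, and every interval is a 95% interval for counting error only.

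The libraries held 2687 cells and 17480958 unique molecular identifiers (UMIs) in cKO IL-33, 2202 cells and 12127214 UMIs in WT IL-33, and 2709 cells and 18269042 UMIs in WT vehicle, with a median of 3951 to 5544 UMIs a cell. All 8 microglial markers were at 10 CPM or more in every library, with a summed level of 23336 CPM in cKO IL-33, 14937 CPM in WT IL-33 and 21913 CPM in WT vehicle. The deposited sex calls differed between the libraries: 39 of 2687 cells were called male in cKO IL-33, 1095 of 2202 in WT IL-33 and 2701 of 2709 in WT vehicle. Cells with both Xist and Y-linked UMIs numbered 3 in cKO IL-33, 305 in WT IL-33 and 7 in WT vehicle. The 5 markers of border macrophages summed over all cells to 85.9 CPM in cKO IL-33, 11.0 CPM in WT IL-33 and 75.4 CPM in WT vehicle, with Lyve1 at 0 in WT IL-33. The 4 monocyte markers summed to 31.8 CPM in cKO IL-33, 7.34 CPM in WT IL-33 and 56.4 CPM in WT vehicle, with Ly6c2 and Chil3 at 0 throughout. Both sums were lowest in WT IL-33, as were the levels of many of the 33 genes, and their part in the results was not tested. Only 1 or 2 cell barcodes in each library also occurred in another. The sex of the cells and the group cannot be told apart between cKO IL-33 and WT vehicle, and the other comparisons are therefore also given within 1 sex call.

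DNA replication is prepared in G1, when the origin recognition complex, Cdc6 and Cdt1 load the hexamer of Mcm2 to Mcm7 onto origins. In S phase Cdc45 and the GINS complex join the hexamer to form the active helicase, and primase, polymerases, the clamp Pcna and the clamp loader copy the strands. Most of these genes are known targets of E2F transcription factors, which the retinoblastoma family holds in check until cyclin D and cyclin E kinases act. Microglia renew themselves by division within the brain, and such division is frequent in the young brain.

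The E2F motif was searched as the letters TTTCCCGC, TTTCGCGC, TTTGCCGC and TTTGGCGC on both strands, in the window that runs from 250 bases before to 50 bases after each start in RefSeq (build GRCm38.p6). A window was listed for 27 of the 33 genes, and none for Atad2, Gins2, Mcm4, Rfc2, Tipin and Usp1. Of the 27, 13 held at least 1 match (48.1%), against 2.61% of the 27025 genes with a window. CCAAT was in 18 of the 27 (66.7%), against 41.1% of all genes. The letters TTTGAA or TTCGAA, the cell cycle homology region of many mitotic genes, were in 5 of the 27 (18.5%), against 21.7% of all genes. Some genes have several windows, and the windows of these genes had a median G and C share of 58.2%, against 52.7% for all. Counted by window, the E2F letters were in 40.6% of the 32 windows of these genes, against 2.26% of all 32851 windows and 4.29% of those with at least 60% G and C. CCAAT was in 62.5% of the 32, against 37.4% of all and 31.6% of those rich in G and C. The cell cycle homology letters were in 15.6% of the 32, below the 19.2% of all windows but above the 7.15% of those rich in G and C. Uhrf1 was also higher in S-called cells, but stood at 9.15 CPM in WT IL-33 and 9.58 CPM in WT vehicle. Its window is shown beside those of Dtl, Mcm5, Mcm6, Cdc6 and Hells, whose levels lay low in WT IL-33 or high in S-called cells. Only genes with a match are among them. Rrm2, Dut and Mcm2 had a window without a match and were also low in WT IL-33. Whether a match goes with a lower level was not tested. Uhrf1 and these 5 partners are in the S phase list that Seurat supplies. Their high levels in S-called cells may thus be by construction. Each sequence runs 5′ to 3′ on the gene's own strand, and capitals mark the E2F letters, on either strand. In Mcm5 and Mcm6 a pair of matches overlap.
Dtl, chr1:191575545-191575592, minus strand: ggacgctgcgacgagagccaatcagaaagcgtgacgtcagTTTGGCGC
Mcm5, chr8:75109316-75109407, plus strand: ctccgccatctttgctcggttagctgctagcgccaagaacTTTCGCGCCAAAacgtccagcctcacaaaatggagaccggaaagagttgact
Mcm6, chr1:128359706-128359855, minus strand: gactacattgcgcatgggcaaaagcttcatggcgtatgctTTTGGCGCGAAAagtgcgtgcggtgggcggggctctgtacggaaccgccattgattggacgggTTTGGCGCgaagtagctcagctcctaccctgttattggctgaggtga
Cdc6, chr11:98907973-98908060, plus strand: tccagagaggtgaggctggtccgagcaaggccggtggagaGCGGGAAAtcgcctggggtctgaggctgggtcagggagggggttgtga
Hells, chr19:38930888-38930975, plus strand: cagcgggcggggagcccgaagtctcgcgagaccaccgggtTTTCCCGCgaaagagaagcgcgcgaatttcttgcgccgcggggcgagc
Uhrf1, chr17:56304088-56304175, plus strand: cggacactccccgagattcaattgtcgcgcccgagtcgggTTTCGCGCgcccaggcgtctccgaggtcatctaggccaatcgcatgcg

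Most of the replication genes were lower in WT IL-33 than in WT vehicle. Their summed level was 502 CPM in cKO IL-33, 427 CPM in WT IL-33 and 782 CPM in WT vehicle. The sum in WT IL-33 was 1.83-fold lower than in WT vehicle, a ratio of 0.546 (0.529 to 0.564). By a 2-fold rule 23 of the 33 genes were lower in WT IL-33 than in WT vehicle and 0 higher, where 10.8% of the 9740 genes at a mean of 5 CPM or more were lower and 10.8% higher. By the interval of the ratio 28 were lower and 1 higher, where 37% of all genes were lower and 40.6% higher. The median log2 ratio, with a pseudocount of 1 CPM, was -1.40 for the 33 genes and 0.04 for all genes. In male-called cells alone the summed ratio was 0.558. In such sums over a library, fewer cells that use a gene and less of its RNA in each cell cannot be told apart. Split by cells, a deposited cluster described below, cluster 4, gave 14.0 CPM of the sum in WT IL-33 and 362 CPM in WT vehicle. Outside it, cells called S phase gave 176 CPM in WT IL-33 and 237 CPM in WT vehicle. The remaining cells gave 237 CPM in WT IL-33 and 183 CPM in WT vehicle.

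**Figure D1:**
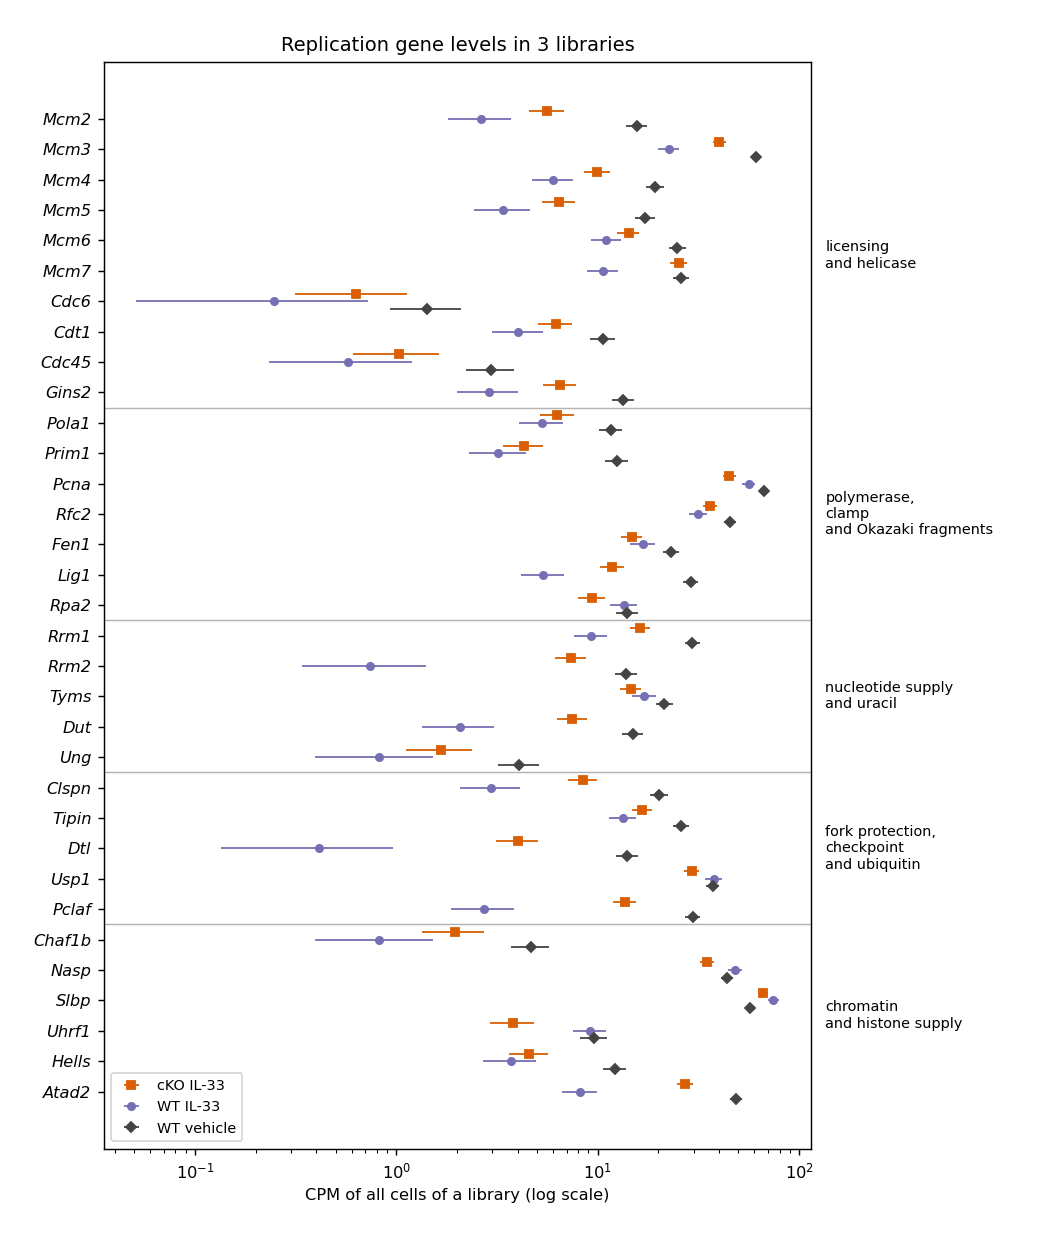
CPM of each of the 33 genes (log axis) over all cells of the cKO IL-33, WT IL-33 and WT vehicle libraries, grouped by role, with exact 95% Poisson intervals for counting error. In the licensing and helicase group at the top, the WT IL-33 point lies lowest for all 10 genes, whereas Slbp, near the bottom, is highest in WT IL-33 (74.5 CPM).

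The licensing and helicase genes showed the most even pattern, with 10 of 10 at least 2-fold lower in WT IL-33 than in WT vehicle. Mcm2 was at 5.61 CPM in cKO IL-33, 2.64 CPM in WT IL-33 and 15.7 CPM in WT vehicle. Mcm5 was at 6.41 CPM in cKO IL-33, 3.38 CPM in WT IL-33 and 17.2 CPM in WT vehicle. Both are subunits of the helicase hexamer, and both were lowest in WT IL-33, at 5.93-fold (4.11 to 8.84) and 5.08-fold (3.66 to 7.22) below WT vehicle. Mcm3, a further subunit, was at 40.2 CPM in cKO IL-33, 22.5 CPM in WT IL-33 and 61.3 CPM in WT vehicle, 2.72-fold lower (2.38 to 3.12) in WT IL-33 than in WT vehicle. Mcm4 was 3.20-fold, Mcm6 2.25-fold and Mcm7 2.43-fold lower in that comparison. Among the 6 subunits, the interval of Mcm2 (0.113 to 0.243) did not overlap that of Mcm6 (0.363 to 0.539). The exons of Mcm7 overlap those of Mir25 and Mir93 on its strand and of Ap4m1 and Cops6 on the other, so its UMIs are less certain.

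Gins2, a GINS subunit, was at 6.52 CPM in cKO IL-33, 2.89 CPM in WT IL-33 and 13.4 CPM in WT vehicle, 4.63-fold lower (3.24 to 6.80) in WT IL-33 than in WT vehicle. Cdt1, the loader that is destroyed once S phase starts, was at 6.18 CPM in cKO IL-33, 4.04 CPM in WT IL-33 and 10.6 CPM in WT vehicle. Its ratio of WT IL-33 over WT vehicle was 0.380 (0.272 to 0.523). Cdc6, its partner in loading, rested on 11 UMIs in cKO IL-33, 3 in WT IL-33 and 26 in WT vehicle, a ratio of 0.174 (0.0337 to 0.567) for WT IL-33 over WT vehicle. Cdc45 rested on 18 UMIs in cKO IL-33, 7 in WT IL-33 and 54 in WT vehicle, a ratio of 0.195 (0.0750 to 0.430).

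The polymerase, clamp and Okazaki fragment genes were divided. Only Pola1, Prim1 and Lig1, 3 of 7, were at least 2-fold lower in WT IL-33 than in WT vehicle. Lig1, the ligase that joins Okazaki fragments, was at 11.8 CPM in cKO IL-33, 5.36 CPM in WT IL-33 and 28.9 CPM in WT vehicle, 5.39-fold lower (4.16 to 7.09) in WT IL-33 than in WT vehicle. Prim1, the catalytic primase subunit, was 3.88-fold lower (2.75 to 5.60), and Pola1, the catalytic subunit of polymerase alpha, which is encoded on chromosome X, 2.20-fold lower (1.66 to 2.96). In contrast, Pcna, the sliding clamp, was at 45.1 CPM in cKO IL-33, 56.2 CPM in WT IL-33 and 66.8 CPM in WT vehicle, a ratio of 0.842 (0.766 to 0.926) for WT IL-33 over WT vehicle. Rfc2, a clamp loader subunit, and Fen1, the flap nuclease, had ratios of 0.690 and 0.723. Rpa2, a subunit of the single-strand binding protein, was at 9.38 CPM in cKO IL-33, 13.4 CPM in WT IL-33 and 14.0 CPM in WT vehicle, and its ratio of 0.959 for WT IL-33 over WT vehicle had an interval from 0.783 to 1.17. Pcna, Rfc2, Fen1 and Rpa2 also serve DNA repair. Annotated pseudogenes Pcna-ps1 and Pcna-ps2 could take reads of Pcna.

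Among the genes of nucleotide supply, 4 of 5 were at least 2-fold lower in WT IL-33 than in WT vehicle. Rrm2, the small subunit of ribonucleotide reductase, was at 7.38 CPM in cKO IL-33, 0.742 CPM in WT IL-33 and 13.8 CPM in WT vehicle. Only 9 UMIs stood behind the level in WT IL-33, against 252 in WT vehicle, and WT IL-33 was 18.6-fold lower (9.64 to 41.1) than WT vehicle. Its partner Rrm1, the large subunit, was at 16.2 CPM in cKO IL-33, 9.24 CPM in WT IL-33 and 29.6 CPM in WT vehicle, 3.20-fold lower (2.61 to 3.96) in WT IL-33 than in WT vehicle. Dut, which removes dUTP, was 7.28-fold lower (4.82 to 11.4) and Ung, the uracil glycosylase, 4.91-fold lower (2.53 to 10.7). Tyms, the thymidylate synthase, stood apart at 14.6 CPM in cKO IL-33, 17 CPM in WT IL-33 and 21.5 CPM in WT vehicle, a ratio of 0.792 (0.666 to 0.939) for WT IL-33 over WT vehicle.

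Dtl had the lowest ratio of the 33 genes. This substrate adaptor of the CUL4 ubiquitin ligase, which directs Cdt1 to destruction on chromatin-bound Pcna, had 70 UMIs (4.00 CPM) in cKO IL-33, 5 UMIs (0.412 CPM) in WT IL-33 and 255 UMIs (14.0 CPM) in WT vehicle. WT IL-33 was 33.9-fold lower (14.3 to 105) than WT vehicle. Pclaf, a Pcna-binding factor, was at 13.6 CPM in cKO IL-33, 2.72 CPM in WT IL-33 and 29.6 CPM in WT vehicle, 10.9-fold lower (7.66 to 16.0) in WT IL-33 than in WT vehicle. Clspn, the adaptor of the replication checkpoint kinase Chk1, was at 8.41 CPM in cKO IL-33, 2.97 CPM in WT IL-33 and 20.2 CPM in WT vehicle, 6.80-fold lower (4.83 to 9.87). Tipin, part of the fork protection complex, had a ratio of 0.517 (0.430 to 0.619) for WT IL-33 over WT vehicle. Usp1, which removes ubiquitin from Pcna, did not follow them, at 29.3 CPM in cKO IL-33, 37.6 CPM in WT IL-33 and 37.2 CPM in WT vehicle, a ratio of 1.01 (0.895 to 1.14).

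The chromatin and histone group held both directions. Atad2, a bromodomain ATPase, was at 27.2 CPM in cKO IL-33, 8.16 CPM in WT IL-33 and 48.5 CPM in WT vehicle, 5.94-fold lower (4.82 to 7.39) in WT IL-33 than in WT vehicle. Chaf1b, a subunit of chromatin assembly factor 1, was 5.64-fold lower (2.92 to 12.2) and Hells, a chromatin remodeller needed for DNA methylation, 3.27-fold lower (2.37 to 4.62). Slbp, which binds the stem-loop of replication-dependent histone mRNAs, was the 1 gene of the 33 whose interval lay above 1, at 66.4 CPM in cKO IL-33, 74.5 CPM in WT IL-33 and 57.1 CPM in WT vehicle, a ratio of 1.31 (1.19 to 1.43). Nasp, a histone chaperone, was at 34.8 CPM in cKO IL-33, 48.0 CPM in WT IL-33 and 43.9 CPM in WT vehicle, a ratio of 1.09 (0.981 to 1.22). Uhrf1, which recruits the maintenance DNA methyltransferase to hemimethylated DNA, was at 3.78 CPM in cKO IL-33, 9.15 CPM in WT IL-33 and 9.58 CPM in WT vehicle, a ratio of 0.956 (0.746 to 1.22). Both intervals include 1.

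With the floxed ST2 alleles, many of these genes were higher after IL-33 than with intact ST2. Of the 33 genes, 13 were at least 2-fold higher and 1 at least 2-fold lower in cKO IL-33 than in WT IL-33, where 11.8% of all genes were higher and 8.97% lower. Of the 29 at a mean of 5 CPM or more, the set that these shares cover, 10 were higher and 1 lower. The summed level in cKO IL-33 over WT IL-33 was 1.18 (1.14 to 1.22), and the median log2 ratio was 0.51 for the 33 genes and 0.02 for all genes. Rrm2 was 9.94-fold (5.08 to 22.2), Dtl 9.71-fold (3.97 to 30.8), Pclaf 5.0-fold (3.47 to 7.44), Dut 3.64-fold (2.36 to 5.82) and Atad2 3.34-fold higher (2.68 to 4.19). In female-called cells without Y-linked UMIs the summed ratio was 1.17. The gene at least 2-fold lower in cKO IL-33 was Uhrf1, at 2.42-fold (1.77 to 3.34). Pcna, Rpa2, Usp1, Nasp and Slbp were also lower in cKO IL-33, with ratios from 0.698 to 0.890 and intervals below 1. By the interval 19 of the 33 genes were higher and 6 lower in cKO IL-33, where 39.8% of all genes were higher and 36.4% lower. This comparison shares the WT IL-33 library with the one before and is not independent of it.

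Most of the genes were lower in cKO IL-33 than in WT vehicle. Of the 33 genes, 15 were at least 2-fold lower and 0 at least 2-fold higher in cKO IL-33 than in WT vehicle, where only 0.524% of all genes were lower and 0.657% higher by that rule. The summed level was 0.642 of that in WT vehicle (0.625 to 0.660), and the median log2 ratio was -0.82 for the 33 genes and 0.06 for all genes. Dtl was 3.49-fold lower (2.67 to 4.61), Prim1 2.91-fold (2.23 to 3.83), Mcm2 2.79-fold (2.21 to 3.55), Mcm5 2.68-fold (2.16 to 3.36) and Hells 2.66-fold lower (2.05 to 3.47) in cKO IL-33 than in WT vehicle. Slbp was higher in cKO IL-33, at 1.16-fold (1.07 to 1.26), and Mcm7 had a ratio of 0.974 (0.854 to 1.11). At 1.5-fold, 25 of the 33 genes were lower, where 1.72% of all genes were. Genotype, injection and the sex of the cells all differ between these libraries and cannot be told apart.

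In cKO IL-33 and WT vehicle a small deposited cluster, cluster 4, carried a large part of these UMIs. Of the 25 genes of a mitosis and G2M list, 22 had a mean of at least 5 CPM over all cells but only 1 outside cluster 4. The cluster was formed from the same counts, so its levels are a description. In WT vehicle its 247 of 2709 cells held 46.3% of the UMIs of the 33 genes, but 11.8% of the UMIs of all genes. In cKO IL-33 its 122 cells held 26.0% of the UMIs of the 33 genes, but 5.42% of the UMIs of all genes. In WT IL-33 its 15 cells held 3.28% of the UMIs of the 33 genes, but 0.766% of the UMIs of all genes. The genes differed widely in this: in WT vehicle 96.5% of Pclaf, 96.4% of Rrm2, 96.2% of Cdc6 and 80.0% of Uhrf1 UMIs came from cluster 4, but 33.3% of Nasp, 30.4% of Mcm3, 30.1% of Slbp and 21.8% of Rfc2 UMIs. Microglial markers in cluster 4 summed to 19531 CPM in cKO IL-33, 15913 CPM in WT IL-33 and 18885 CPM in WT vehicle. The 4 monocyte markers summed there to 89.7 CPM in cKO IL-33, 10.8 CPM in WT IL-33 and 103 CPM in WT vehicle, with Ly6c2 and Chil3 at 0 in all 3 libraries, and their part in the result was not tested.

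Within cluster 4 the 33 genes summed to 2403 CPM in cKO IL-33, against 3057 CPM in WT vehicle, a ratio of 0.786 (0.749 to 0.825). The intervals of 15 of the 33 genes lay below 1 and of 0 above 1, where 4.33% of all genes in these cells lay below and 7.58% above. Gins2 was at 14.8 CPM in cKO IL-33, against 40.7 CPM in WT vehicle, 2.76-fold lower (1.56 to 5.25) in cKO IL-33, and Dtl was 1.76-fold lower (1.28 to 2.48). In contrast, Rrm2 was at 132.9 CPM in cKO IL-33, against 112.5 CPM in WT vehicle, a ratio of 1.18 (0.945 to 1.47), and Usp1 had a ratio of 1.08 (0.862 to 1.33). The mix of phases also differed: cluster 4 had 32 S-called and 76 G2M-called cells in cKO IL-33, against 89 and 136 in WT vehicle. Its part in these ratios was not tested. The 15 cells of WT IL-33 summed to 1829 CPM, on 170 UMIs, too few to describe single genes.

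**Figure D2:**
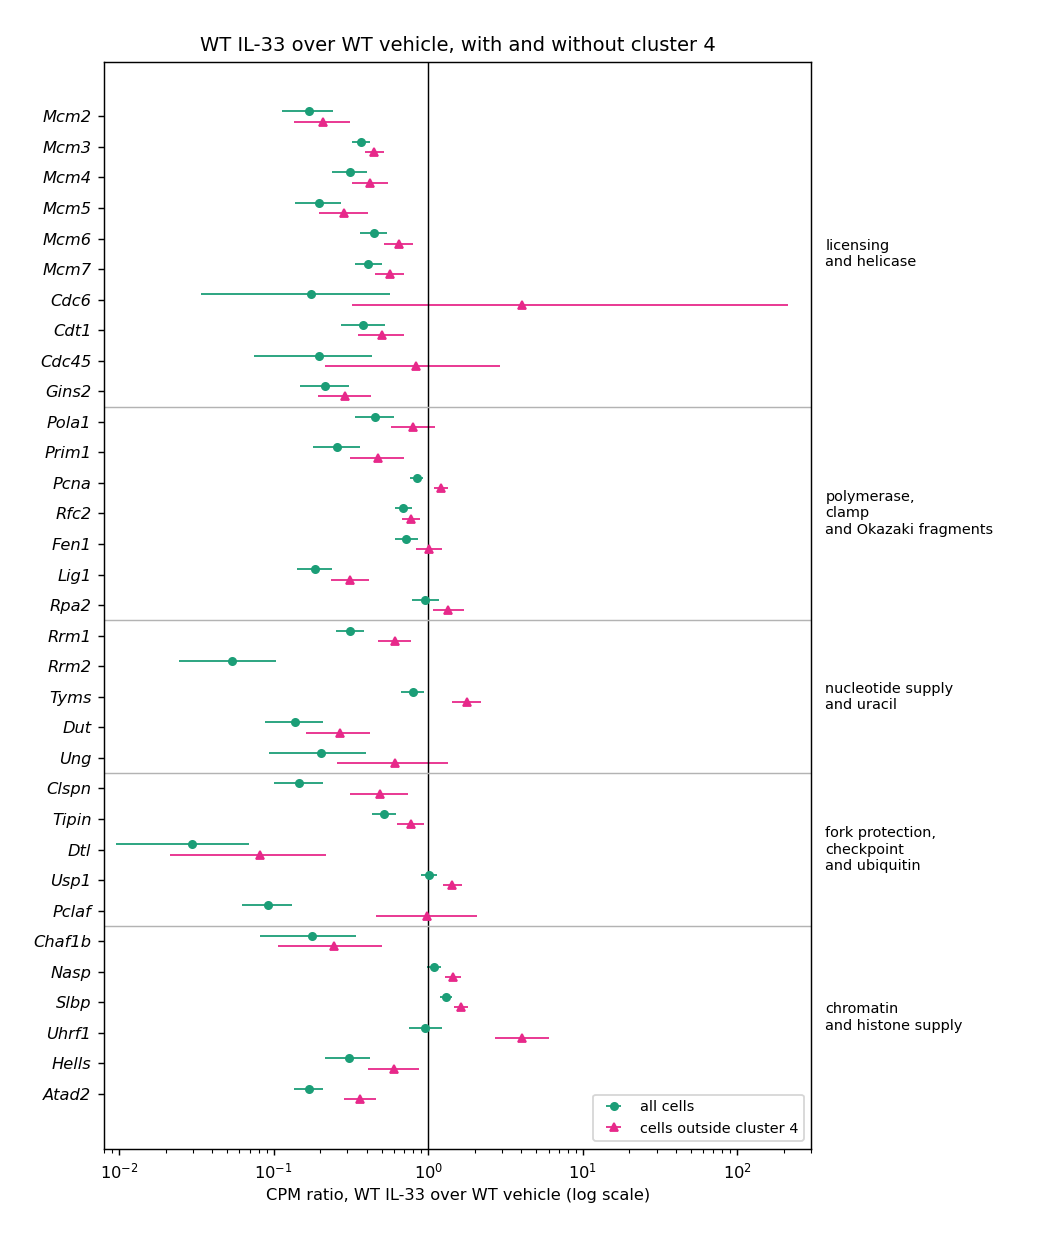
Ratio of CPM in WT IL-33 over WT vehicle (log axis) for each of the 33 genes, over all cells (circles) and over cells outside cluster 4 (triangles), with exact 95% intervals for counting error; the line marks a ratio of 1, and Rrm2 has no triangle because WT IL-33 had 0 UMIs outside cluster 4. Without cluster 4 the points of most genes lie nearer to 1, Dtl stays far left (0.0811) and Uhrf1 lies far right (4.02).

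Outside cluster 4 many of the genes were still lower in WT IL-33, and a smaller share was higher than among all genes. The sum was 393 CPM in cKO IL-33, 416 CPM in WT IL-33 and 476 CPM in WT vehicle, a ratio of 0.874 (0.843 to 0.905) for WT IL-33 over WT vehicle. Of the 33 genes, 13 were at least 2-fold lower in WT IL-33, where 9.96% of the 9641 genes at a mean of 5 CPM or more in these cells were lower. Only 21 of the 33 reached that mean in these cells, and 7 of the 21 were lower. The higher ones were Uhrf1 and Cdc6, 2 of 33 and both under that mean, where 11.5% of all genes were higher. Cdc6 had 3 UMIs in WT IL-33 against 1 in WT vehicle, a ratio of 4.02 (0.322 to 211). The genes still lower were led by Dtl, with 4 UMIs in WT IL-33 against 66 in WT vehicle, 12.3-fold lower (4.59 to 46.6). Mcm2 was at 2.41 CPM in WT IL-33 against 11.5 CPM in WT vehicle, 4.79-fold lower (3.23 to 7.35). Dut was 3.74-fold, Mcm5 3.48-fold, Gins2 3.43-fold, Lig1 3.18-fold and Atad2 2.74-fold lower in WT IL-33. Rrm2 had 0 UMIs in WT IL-33 against 9 in WT vehicle.

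Uhrf1 lay at the other end of the range in these cells. It had 15 UMIs (0.907 CPM) in cKO IL-33, 105 UMIs (8.73 CPM) in WT IL-33 and 35 UMIs (2.17 CPM) in WT vehicle. WT IL-33 was thus the highest of the 3 libraries, 4.02-fold above WT vehicle (2.72 to 6.07), and cKO IL-33 was 9.62-fold below WT IL-33 (5.57 to 17.8). In cluster 1, which held 1815 of the WT IL-33 cells, 99 UMIs gave 9.46 CPM. In cells called male outside cluster 4, Uhrf1 was at 8.90 CPM in WT IL-33 and 2.18 CPM in WT vehicle, and in cells of any cluster with no UMI of the 25 mitosis genes it was at 0.791 CPM in cKO IL-33, 9.30 CPM in WT IL-33 and 2.34 CPM in WT vehicle. Over all cells Uhrf1 had nearly equal sums, although 5.41% of its UMIs in WT IL-33 came from cluster 4, against 80.0% in WT vehicle.

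The other genes that were higher in WT IL-33 outside cluster 4 were Tyms, Slbp, Nasp, Usp1, Rpa2 and Pcna. Tyms was at 10.8 CPM in cKO IL-33, 16.6 CPM in WT IL-33 and 9.37 CPM in WT vehicle, a ratio of 1.77 (1.43 to 2.20) for WT IL-33 over WT vehicle. Slbp was at 62.4 CPM in cKO IL-33, 73.9 CPM in WT IL-33 and 45.3 CPM in WT vehicle, a ratio of 1.63 (1.48 to 1.80). Nasp and Usp1 both had ratios of 1.44, Rpa2 had 1.35 and Pcna 1.21, all with intervals above 1. With Uhrf1, 7 of the 33 genes had an interval above 1 and 20 had one below 1, where 41.4% of all genes in these cells lay above and 35.7% below. The share of the 33 genes above 1 was thus below that of all genes.

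By the 2-fold rule, outside cluster 4, 8 of the 33 genes were higher and 2 lower in cKO IL-33 than in WT IL-33, where 11.1% of all genes were higher and 9.26% lower. Those shares cover genes at a mean of 5 CPM or more in these cells, and of the 21 members there, 3 were higher and 0 lower. Against WT vehicle, 9 of the 33 were at least 2-fold lower in cKO IL-33 and 0 higher, where 0.239% of all genes were lower and 0.664% higher. Of the same 21, 3 were lower. Mcm5 was at 3.51 CPM in cKO IL-33, against 11.0 CPM in WT vehicle, 3.13-fold lower (2.32 to 4.29), and Prim1 was 2.91-fold lower (1.97 to 4.38). Slbp, at 1.38-fold (1.25 to 1.52), Mcm7, at 1.25-fold (1.07 to 1.45), and Pclaf, at 2.0-fold (1.13 to 3.66), were higher in cKO IL-33 than in WT vehicle.

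The deposited phase calls order the genes within cluster 4. Of the 33 genes, 27 are in the S phase list that Seurat supplies for such calls, and Mcm3, Mcm7, Lig1, Dut, Cdt1 and Pclaf are not. The sources used here do not give the lists the authors used, so the values of the 27 are a description. If such a list was used, its genes are higher in S-called cells by construction, and counts that include them are not evidence. In cluster 4 of cKO IL-33, with 32 S-called and 76 G2M-called cells, 16 of the 33 genes were higher in S-called cells and 4 in G2M-called cells by their intervals, where 5.52% and 6.43% of all genes were. In WT vehicle, with 89 S-called and 136 G2M-called cells, 22 were higher in S-called and 3 in G2M-called cells, where 8.17% and 9.74% of all genes were. Of the 6 genes outside the list, Mcm3, Lig1, Dut and Cdt1 were higher in S-called cells of both libraries by their intervals. Mcm7 was so in WT vehicle only, and Pclaf was higher in G2M-called cells of both.

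Ratios of S-called over G2M-called cells above 1 were found in several roles. Hells was at 125 CPM in S-called against 14.3 CPM in G2M-called cells of cKO IL-33, an 8.76-fold ratio, and at 142 CPM against 14.2 CPM in WT vehicle, a 9.97-fold ratio. Dtl had ratios of 4.97 in cKO IL-33 cells and 5.17 in WT vehicle cells, and Mcm6 had 5.30 in cKO IL-33, against 4.37 in WT vehicle. Ung had 16 against 2 UMIs in cKO IL-33 and 50 against 2 UMIs in WT vehicle. Of the 6 genes outside the list, Cdt1 had a ratio of 12 (3.91 to 48.9) in cKO IL-33 and 4.50 (2.53 to 8.37) in WT vehicle, and Lig1 4.88 in cKO IL-33, against 2.48 in WT vehicle. Pclaf was the opposite, at 107 CPM in S-called against 278 CPM in G2M-called cells of cKO IL-33 and 171 CPM against 310 CPM in WT vehicle, and Rrm1 and Rrm2 were also lower in S-called cells of both libraries. Clspn, Atad2, Tipin and Cdc45 had intervals that included 1 in both libraries.

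**Figure D3:**
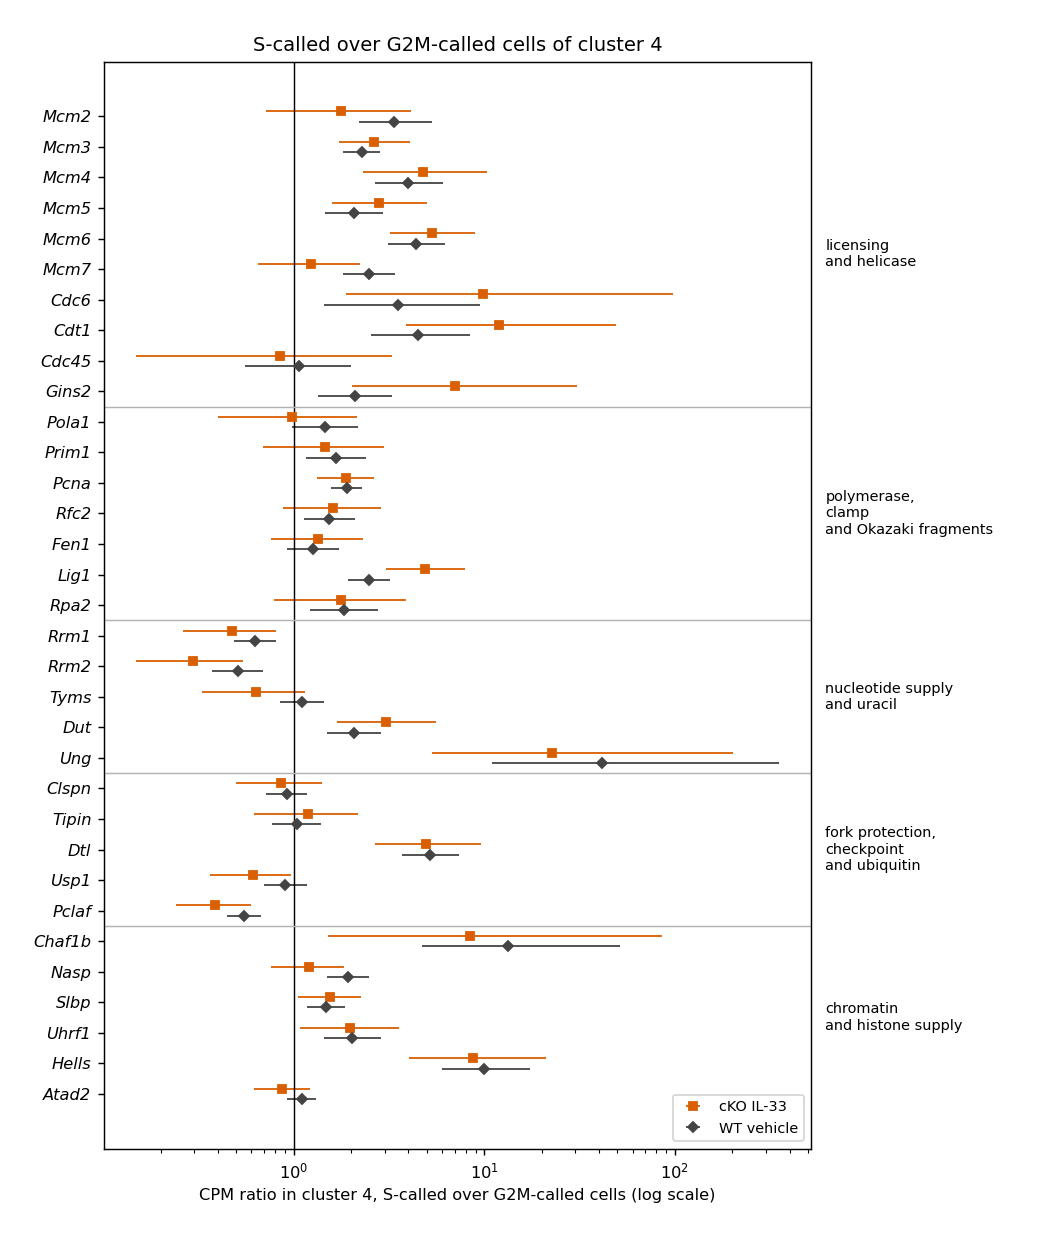
Ratio of CPM in S-called over G2M-called cells of cluster 4 (log axis) for each of the 33 genes in cKO IL-33 (squares) and WT vehicle (diamonds), with exact 95% intervals for counting error; the line marks a ratio of 1. Ung, Chaf1b, Hells and Cdt1 lie far to the right and Rrm1, Rrm2 and Pclaf to the left in both libraries.

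Single cells with many of these genes at once were counted after each cell was thinned to 2000 UMIs, which left out no cell. At least 5 of the 33 genes were found in 53 of 2687 cells of cKO IL-33 (1.97%, 1.48 to 2.57), 12 of 2202 cells of WT IL-33 (0.545%, 0.282 to 0.95) and 145 of 2709 cells of WT vehicle (5.35%, 4.54 to 6.27). Without thinning the shares were 12.3% in cKO IL-33, 8.40% in WT IL-33 and 20.9% in WT vehicle. At 1 gene or more the thinned libraries were closer, at 51.6% of cells in cKO IL-33, 55.6% in WT IL-33 and 58.4% in WT vehicle. The libraries thus differed by a larger factor in cells with many of the genes than in cells with any. No cell type that should lack these genes was present in number, so the share that free RNA gives was not measured.

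**Figure D4:**
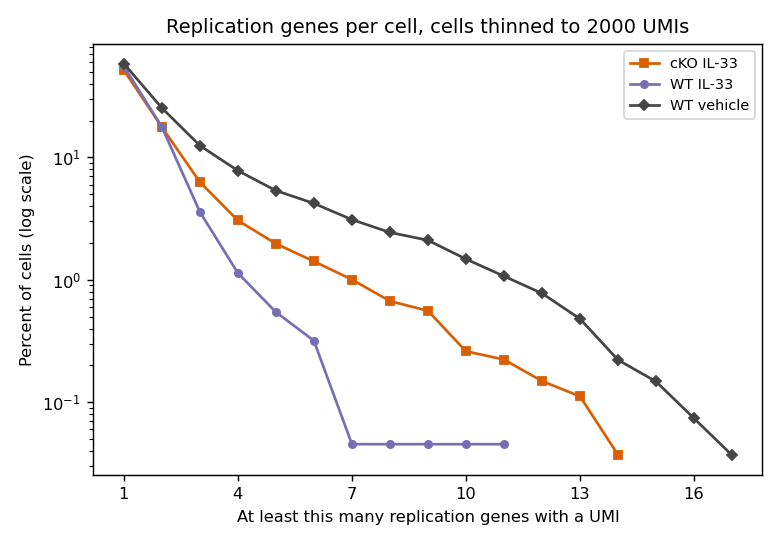
Percent of cells (log axis) with UMIs of at least the given number of the 33 genes, after thinning each cell to 2000 UMIs, in cKO IL-33, WT IL-33 and WT vehicle. The curves start close together at 1 gene and part from 3 genes on, where 6.29% of cells remain in cKO IL-33, 3.59% in WT IL-33 and 12.5% in WT vehicle.

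The WT IL-33 library held cells of both sex calls, which allows a look within 1 library. In this library 305 of the 2202 cells had both Xist and Y-linked UMIs, so the sex call of those cells is less certain. The 33 genes summed to 437 CPM in its 1095 male-called cells and 421 CPM in its 1107 female-called cells, a ratio of 1.04 (0.982 to 1.10). The interval excluded 1 for 4 genes: Mcm7 at 0.576, Pcna at 1.18, Usp1 at 1.25 and Rrm2 at 5.42, the last on 7 against 2 UMIs. Among all genes 8.39% were higher and 17.7% lower in male-called cells by that rule. These cells come from 1 library, and the sources used here do not say which animals they came from.

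Other genes of the same pathway were read from 3 lists. Of 49 other replication genes, 24 were at least 2-fold lower and 0 higher in WT IL-33 than in WT vehicle, with a median log2 ratio of -0.83, where 10.8% of all genes were lower and 10.8% higher. Of the 34 at a mean of 5 CPM or more, the set that these shares cover, 13 were lower. Gmnn, the inhibitor of Cdt1, was at 7.89 CPM in cKO IL-33, 2.72 CPM in WT IL-33 and 16.3 CPM in WT vehicle, 5.99-fold lower in WT IL-33 than in WT vehicle. Tk1, the thymidine kinase, was 5.67-fold, Wdhd1, a replisome factor, 5.54-fold and Rad51ap1, a recombination factor, 13.6-fold lower. Orc4, an origin recognition subunit, was at 44.8 CPM in cKO IL-33, 51.0 CPM in WT IL-33 and 40.1 CPM in WT vehicle, a ratio of 1.27 (1.14 to 1.42). Rfc1, the large clamp loader subunit, had a ratio of 0.923 (0.836 to 1.02). Pold4, Topbp1 and Dctpp1 were 1.86-fold, 2.17-fold and 1.66-fold lower and Pole4 1.25-fold higher in WT IL-33.

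Of 22 regulators of the step from G1 to S, 10 were lower and 3 (13.6%) higher in WT IL-33 than in WT vehicle by the 2-fold rule, with a median log2 ratio of -0.81. Beside the 10.8% of all genes in each direction, the share that was higher is near the background. That background covers genes at a mean of 5 CPM or more, and of the 17 regulators there, 5 were lower and 3 higher. The higher ones were Ccnd2, Cdk6 and Myc. Ccnd2, a D-type cyclin, had 8 UMIs in cKO IL-33, 293 in WT IL-33 and 7 in WT vehicle, so WT IL-33 alone was high, 63.1-fold above WT vehicle (30.2 to 158). Myc, a growth transcription factor, was at 26.9 CPM in cKO IL-33, 89.1 CPM in WT IL-33 and 16.0 CPM in WT vehicle, 5.58-fold higher (4.90 to 6.37) in WT IL-33 than in WT vehicle. Cdk6, a partner kinase of D-type cyclins, was 2.43-fold higher (2.32 to 2.54). The other D-type cyclins, Ccnd1 and Ccnd3, were 1.85-fold and 1.64-fold lower and Cdk4 had a ratio of 0.835 (0.756 to 0.922).

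The inhibitors of cyclin-dependent kinases differed in direction. Cdkn1a, which encodes p21, was at 43.6 CPM in cKO IL-33, 132.6 CPM in WT IL-33 and 71.1 CPM in WT vehicle, 1.86-fold higher (1.73 to 2.01) in WT IL-33 than in WT vehicle. Cdkn1b, which encodes p27, was 2.13-fold lower and Cdkn2c, which encodes p18, 10.3-fold lower (7.13 to 15.3) in WT IL-33 than in WT vehicle. Rbl1, a retinoblastoma family member, was 2.69-fold lower. In cKO IL-33 against WT IL-33, 8 of the 22 regulators were at least 2-fold higher and 4, Ccnd2, Cdk6, Cdkn1a and Myc, at least 2-fold lower, where 11.8% of all genes were higher and 8.97% lower. Of the 17 regulators at a mean of 5 CPM or more, the set that these shares cover, 3 were higher and 4 lower. Against WT vehicle, Ccne1, Ccne2, E2f7 and E2f8, 4 of the 22, were at least 2-fold lower in cKO IL-33, where 0.524% of all genes were. All 4 had a mean below 5 CPM, and 0 of the 17 regulators at or above it were lower. Ccnd3 was higher, at 205.5 CPM in cKO IL-33, against 95.5 CPM in WT vehicle.

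The genes of mitosis and G2M had the lowest median of the lists in WT IL-33 over WT vehicle. All 25 of that list were at least 2-fold lower in WT IL-33 than in WT vehicle, with a median log2 ratio of -2.69, and all 25 were at least 2-fold higher in cKO IL-33 than in WT IL-33. Among all genes 10.8% were lower in the first comparison and 11.8% higher in the second. Those shares cover genes at a mean of 5 CPM or more, which 22 of the 25 reached. Cenpf, a kinetochore gene, was at 34.0 CPM in cKO IL-33, 3.05 CPM in WT IL-33 and 57.7 CPM in WT vehicle. Kif11, the spindle motor, had 188 UMIs in cKO IL-33, 7 in WT IL-33 and 349 in WT vehicle, 33.1-fold lower in WT IL-33 than in WT vehicle. Mki67, Top2a, Cenpa, Cenpe, Cdk1 and Ube2c were 5.12-fold to 17.1-fold lower in WT IL-33 than in WT vehicle. Against WT vehicle, 5 of these 25 genes were at least 2-fold lower in cKO IL-33, beside 8 of the 49 other replication genes, 15 of the 33 and 0.524% of all genes. Among genes at a mean of 5 CPM or more these counts were 4 of 22, 3 of 34 and 11 of 29.

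**Figure D5:**
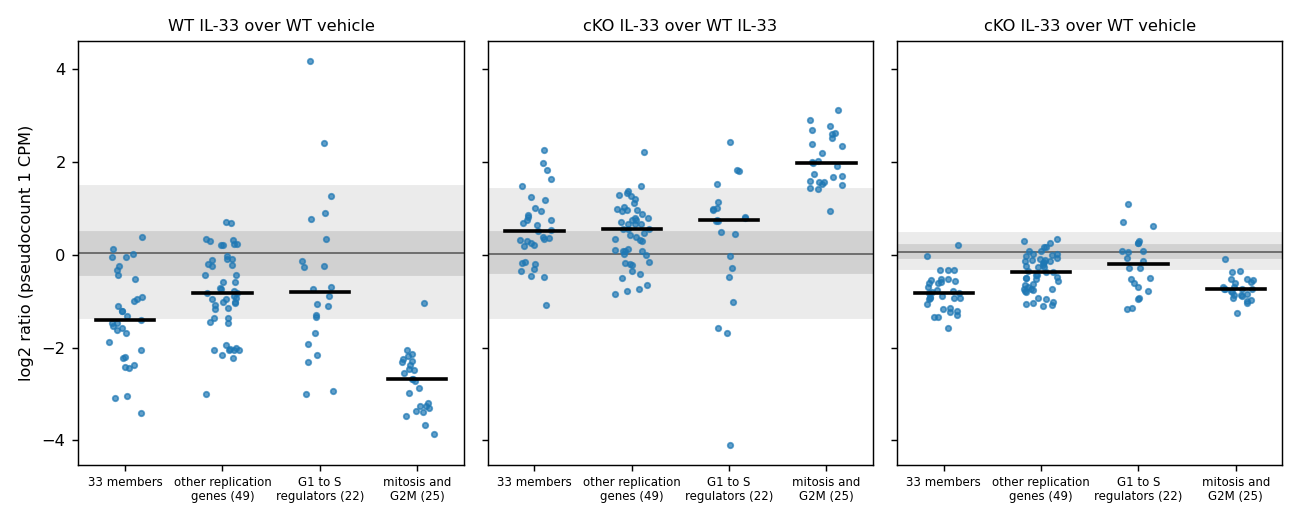
Log2 ratio of CPM (pseudocount 1) of each gene of 4 lists in the 3 comparisons, with the list median as a black bar; the light band spans the 5th to 95th and the dark band the 25th to 75th percentile of the 9740 genes at a mean of 5 CPM or more, and the line is their median. In WT IL-33 over WT vehicle the medians are -1.40 for the 33 genes and -2.69 for mitosis and G2M; in cKO IL-33 over WT vehicle they are -0.82 and -0.75.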

How the data were processed

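The authors deposited 1 table of raw UMI counts, with 20586 genes and 7598 cells. A second table gives, per the file headers, each cell's library, sex call, cluster, phase, counts, phase scores and mitochondrial and ribosomal percent. The S and G2M scores and the percent values are the authors' own and entered no comparison, and 3 other value columns were not used. Cell Ranger 5.0, Seurat 4.0.1 and GRCm38 are named, per the submitters' processing notes. Aligner settings, cell filters and any doublet removal are not stated in the sources at hand, and no doublet caller was run.

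For each gene, the counts of a library's cells were added up and scaled by that library's total (CPM). Levels have exact Poisson, ratios exact conditional binomial (Clopper-Pearson) and shares exact binomial intervals at 95%. Log2 ratios used a pseudocount of 1 CPM. The usual S phase list came from Seurat 5.3.0 in R 4.3.3. Other steps used Python 3.11.15 with numpy 2.4.6, pandas 2.3.3 and scipy 1.17.1. The steps were tested on simulated data.

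The genes and lists were chosen with earlier results of these data known. All 33 genes are named. Of each other list, the 6 genes with the highest mean CPM and the 4 with the largest log2 ratio of WT IL-33 over WT vehicle at a mean of 5 CPM or more are named. Some genes that a count refers to are named besides, chosen after their values were seen. Exons of Lig1, Fen1, Gins2, Cdc45, Rfc2 and Slbp overlap a gene on the other strand, and Tyms and Nasp have annotated pseudogenes, so their counts are less certain, since no source used here says whether strand was used. Alternatives were another scaling, totals without mitochondrial and ribosomal genes, means of single-cell CPM, cells of 1 sex call, other thresholds and members outside the S list. For cells outside cluster 4, alternatives were added after seeing the data.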

Additional observations from a re-analysis of the deposited data

How the results depend on the processing

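The summed ratio of WT IL-33 over WT vehicle, 0.546, was 0.514 with totals without mitochondrial and ribosomal genes, 0.522 with median-of-ratios scaling, 0.615 as a mean of single-cell CPM and 0.276 over the 6 genes outside the S list. That of cKO IL-33 over WT vehicle, 0.642, was 0.623, 0.614, 0.680 and 0.611 under these settings in the same order. That of cKO IL-33 over WT IL-33, 1.18, was 1.11 as a mean of single-cell CPM and 2.21 over the 6 genes. Counts over fewer genes are smaller by construction. Over the 6 genes, 6 were at least 2-fold lower in WT IL-33 than in WT vehicle, 3 lower in cKO IL-33 than in WT vehicle, and 4 higher and 0 lower in cKO IL-33 than in WT IL-33. Over those of the 33 genes at a mean of 10 CPM or more these counts were 9, 3, 5 and 0. Among all genes at a mean of 5 CPM or more, the shares by the same rules were 10.8%, 0.524%, 11.8% and 8.97%, in the same order. The shares of all genes at 10 CPM or more are not given here. At 1.5-fold, 25 genes in place of 15 were lower in cKO IL-33 than in WT vehicle. Shares of thinned cells with at least 3 of the genes were 6.29% in cKO IL-33, 3.59% in WT IL-33 and 12.5% in WT vehicle, and with at least 8 they were 0.670% in cKO IL-33, 0.0454% in WT IL-33 and 2.44% in WT vehicle. Unthinned, the shares with at least 5 were 12.3% in cKO IL-33, 8.40% in WT IL-33 and 20.9% in WT vehicle. Outside cluster 4, 33 of 33 ratios of WT IL-33 over WT vehicle moved by less than their intervals in cells without a mitosis UMI, and 32 of 33 in male-called cells, where Mcm7 was at 0.396 in place of 0.565. Over all cells the Uhrf1 ratio of WT IL-33 over WT vehicle was 1.27 as a mean of single-cell CPM, against 0.956, on the other side of 1.

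No paired analysis was possible because each group is 1 library. Intervals cover counting error only, and low counts limit Cdc6, Cdc45, Ung and Chaf1b.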
